A study of Bos taurus with 4 samples.

Results

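Genes of bile acid uptake and sensing were examined in bovine intestinal organoids, in small intestine and in muscle. The 8 genes were chosen by symbol for their known roles. They were SLC10A2, SLC51A, SLC51B and FABP6, which move bile acids through the enterocyte, the receptors NR1H4 and GPBAR1, and NR0B2 and FGF19, which are induced by NR1H4. Each symbol had a single row, so the genes are 8 of the 29792 rows of the count tables.

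There were 4 libraries of Hanwoo cattle, 1 each of small intestine tissue, muscle tissue, intestinal organoids at passage 5 (P5) and intestinal organoids at passage 10 (P10). All 4 libraries came from animals older than 24 months. The organoids grew from crypts of the jejunum, in Matrigel with IntestiCult medium. The labels name no treatment, and the number of animals behind each library, the gut segment of the tissue library and the muscle sampled were not given in the sources used here. With 1 library per group no difference could be tested, and all intervals below are 95% intervals of the counting error only.

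Bile acids are made in the liver, released into the gut with a meal and taken back mainly in the ileum, the last segment of the small intestine. SLC10A2 imports them at the apical side of the ileal enterocyte, FABP6 binds them in the cytosol, and the dimer of SLC51A and SLC51B exports them to the blood. Inside the cell, bile acids activate the nuclear receptor FXR, the product of NR1H4, which switches on SLC51A, SLC51B, FABP6, NR0B2 and FGF19. High SLC10A2, FABP6 and FGF19 together are a usual sign of ileal enterocytes.

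The libraries were made with QuantSeq, which reads the 3′ ends of polyadenylated RNA, and held between 12917720 and 17776273 counted reads. Levels are given as CPM, the reads of a gene scaled to a library of 1000000 reads. A gene with 3 reads or fewer was regarded as being at the floor, which is 0.169 CPM in intestine and P10 organoids, 0.221 CPM in P5 organoids and 0.232 CPM in muscle. The tissue labels fitted their markers. The 6 skeletal muscle genes checked summed to 28242 CPM in muscle and to 3.21 CPM or less in each other library. The 10 epithelial genes checked, among them EPCAM and KRT8, summed to 2257 CPM in intestine, 11384 CPM at P5, 10657 CPM at P10 and 63.6 CPM in muscle. The stroma list summed to 998 CPM in intestine and to at most 3.68 CPM in the organoids, and the immune list to 5179 CPM against at most 10.2 CPM. Intact intestine therefore held far more RNA of stromal and immune cells than the organoids did, and in such bulk samples fewer cells of a type and less RNA per cell cannot be told apart. For this reason each comparison with intestine was also made per epithelial RNA, by scaling to the geometric mean of the 10 epithelial genes, which was 4.70 times that of intestine at P5 and 3.99 times at P10. This scaling moves all rows down against intestine, to a median log2 ratio of -2.14 at P5 and -1.87 at P10, so a gene lower per epithelial RNA is in the usual position there. By library totals, the log2 ratios of the 10 epithelial genes to intestine ran from 0.96 to 3.63 at P5. At P10 they ran from -0.72 to 5.34. For a gene whose ratio lies within this range, the direction per epithelial RNA can therefore depend on which epithelial genes are used. Other choices were not tested.

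The 8 genes split into those carried by the organoids and those above the floor in intestine but not in the organoids. SLC10A2, SLC51A, SLC51B and NR1H4 were above the floor in both organoid libraries, whereas FABP6, GPBAR1, NR0B2 and FGF19 were at the floor in both. In intestine the only gene at the floor was SLC10A2. In muscle GPBAR1, NR0B2 and FGF19 were at the floor.

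**Figure D1:**
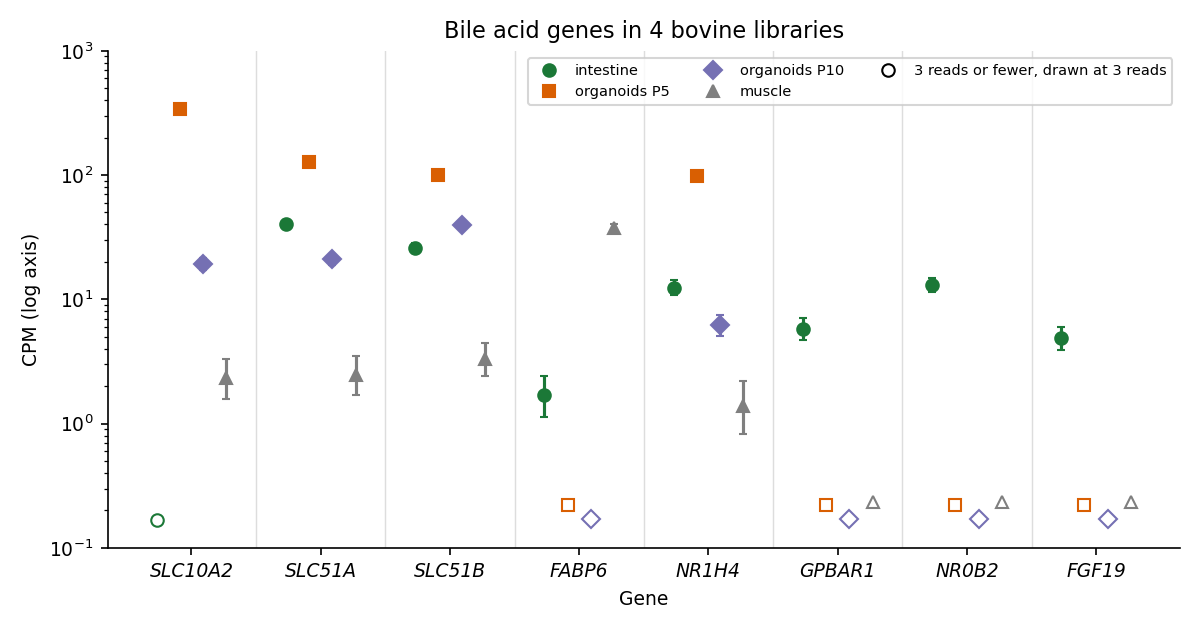
Level of the 8 bile acid genes in each library, in CPM on a log axis. Filled symbols are measured levels with the 95% exact Poisson interval of the count, and open symbols are counts of 3 reads or fewer, drawn at the value of 3 reads. SLC10A2, SLC51A, SLC51B and NR1H4 were highest in P5 organoids, FABP6 was highest in muscle, and GPBAR1, NR0B2 and FGF19 were above the floor in intestine only.

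SLC10A2, the apical sodium-dependent bile acid importer, had 0 reads in intestine, 4605 at P5, 343 at P10 and 30 in muscle. The level at P5 was 339 CPM (interval 329 to 349), that at P10 was 19.3 CPM (17.4 to 21.5) and that of muscle was 2.32 CPM (1.57 to 3.32). The 0 reads in intestine put the gene at the floor of 0.169 CPM, and the exact interval of that count reaches 0.208 CPM. The 4 libraries were thus ordered P5 organoids, P10 organoids, muscle and intestine, with no overlap of their intervals. Against the floor of intestine, SLC10A2 was higher at P5 by at least 2006-fold and at P10 by at least 115-fold. These bounds are set by the floor and leave out counting error. Per epithelial RNA the log2 ratio to intestine was at least 8.74 at P5 and 4.85 at P10, so the direction was kept when the larger share of epithelial RNA was taken into account.

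The 2 exporter subunits were above the floor in all libraries, in muscle on few reads. SLC51A, the alpha subunit, had 715 reads in intestine, 1726 at P5, 372 at P10 and 32 in muscle. Its level was 40.2 CPM in intestine (37.3 to 43.3), 127 CPM at P5 (121 to 133), 21.0 CPM at P10 (18.9 to 23.2) and 2.48 CPM in muscle (1.69 to 3.497). P5 organoids were thus above intestine and P10 organoids below it, by ratios of 3.16 (2.89 to 3.45) and 0.522 (0.459 to 0.592). Per epithelial RNA the direction in P5 organoids turned, to a log2 ratio of -0.58, and that in P10 organoids was -2.93.

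SLC51B, the beta subunit that the alpha subunit needs to reach the membrane, had 462 reads in intestine, 1360 at P5, 708 at P10 and 43 in muscle. In the same order the levels were 26.0 CPM (23.7 to 28.5), 100.001 CPM (94.8 to 105), 39.9 CPM (37.0 to 43.0) and 3.33 CPM (2.41 to 4.48). In contrast to SLC51A, both organoid libraries were above intestine, by ratios of 3.85 (3.46 to 4.29) and 1.54 (1.36 to 1.73). Here too the direction turned per epithelial RNA, with log2 ratios of -0.29 at P5 and -1.38 at P10. By library totals these log2 ratios were 1.94 and 0.62, within the range of the 10 epithelial genes used for scaling.

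The balance of the subunits differed between the libraries. For each read of SLC51B there were 1.55 reads of SLC51A in intestine (1.37 to 1.74), 1.27 at P5 (1.18 to 1.36), 0.525 at P10 (0.462 to 0.597) and 0.744 in muscle (0.456 to 1.20). This ratio does not depend on the scaling of the libraries. P10 organoids lay below intestine and P5 organoids beyond counting error. Muscle, with few reads, was separate from intestine, but its interval overlapped those of both P5 and P10 organoids. In the RefSeq annotation of ARS-UCD2.0, SLC51A overlaps PCYT1A and SLC51B overlaps RASL12. Whether reads were counted by strand was not given, so reads of these pairs may have been shared. PCYT1A had 2377, 2364 and 897 reads in intestine, P5 and P10 organoids, and RASL12 had 99, 441 and 189.

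FABP6, the ileal bile acid binding protein, had 30 reads in intestine, 3 at P5, 0 at P10 and 480 in muscle. The level in muscle was 37.2 CPM (33.9 to 40.6) and that in intestine 1.69 CPM (1.14 to 2.41). Muscle was thus above intestine by 22.0-fold (15.2 to 32.996). Both organoid libraries were below intestine, by 7.65-fold at P5, on 3 reads, and by at least 9.97-fold at P10. Counting error is not in these values: the interval at P5 reached 0.645 CPM, beside 1.14 CPM at the lower end of intestine. The P5 and P10 organoids could not be separated. Muscle also held the reads of its paralogs FABP3 (14332), the heart and muscle form, and FABP4 (383), the adipocyte form. P10 organoids had 3647 reads of FABP3 and none of FABP6. Reads with several alignments were counted, and read sharing between paralogs was not tested in any library.

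NR1H4, which encodes the bile acid receptor FXR, had 221 reads in intestine, 1331 at P5, 110 at P10 and 18 in muscle. Its level was 12.4 CPM in intestine (10.8 to 14.2), 97.9 CPM at P5 (92.7 to 103), 6.20 CPM at P10 (5.10 to 7.48) and 1.39 CPM in muscle (0.826 to 2.20). The ratio of P5 organoids to intestine was 7.87 (6.82 to 9.12), and that of P10 organoids was 0.499 (0.393 to 0.630). Per epithelial RNA the log2 ratio stayed above 0 at P5, at 0.74, and was -2.997 at P10.

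The 2 FXR target genes not involved in transport were lower in P5 organoids than in intestine, whereas the receptor was higher there. NR0B2, which encodes the repressor SHP, had 232 reads in intestine, 1 at P5, 0 at P10 and 1 in muscle. FGF19, the hormone that tells the liver to make less bile acid, had 87 reads in intestine, 1 at P5 and 0 in both P10 organoids and muscle. In intestine this was 13.1 CPM of NR0B2 (11.4 to 14.8) and 4.89 CPM of FGF19 (3.92 to 6.04). NR0B2 was below intestine by at least 59.2-fold at P5 and 77.1-fold at P10. FGF19 was below it by at least 22.2-fold and 28.9-fold. Neither gene could be told apart between the organoids and muscle, all 3 of which were at the floor.

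GPBAR1 encodes TGR5, the bile acid receptor of the cell surface, known from enteroendocrine cells and macrophages. It had 103 reads in intestine and 0 reads in each of P5 organoids, P10 organoids and muscle. The paper reported organoids at P5 as positive for TGR5 by immunostaining, a measure of protein, whereas these counts are of RNA. The level in intestine was 5.79 CPM (4.73 to 7.03), and the organoids were at least 26.3-fold lower at P5 and 34.2-fold lower at P10. The neighbouring gene AAMP had 1470, 1223 and 1785 reads in intestine, P5 and P10 organoids. The enteroendocrine list, 6 genes such as CHGA and GCG, summed to 278 CPM in intestine, 4.49 CPM at P5, 5.64 CPM at P10 and 0 CPM in muscle. The immune list, which included CD68, CD163 and CSF1R, had a median log2 ratio of -6.02 in P5 organoids against intestine, with all 7 genes lower by at least 2-fold. GPBAR1, NR0B2 and FGF19 moved together with these lists, whose part in their difference was not tested. Of the 13318 rows with at least 50 reads in intestine, 641 (4.81%) were at the floor in both organoid libraries, as these 3 genes were.

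In P5 organoids against intestine, 4 of the 8 genes were higher and 4 lower by 2-fold or more. Of all 17783 rows with at least 10 reads in either library, 21.5% were higher and 24.8% lower by that much. The genes above intestine were SLC10A2, SLC51A, SLC51B and NR1H4. The median log2 ratio of the 8 genes was -0.64, beside 0.089 over all rows, and this median lies in a gap between positive and negative values. Per epithelial RNA only SLC10A2 was higher by 2-fold or more, while 4 were lower, beside 2.67% and 82.6% of all rows on that scale.

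In P10 organoids against intestine, SLC10A2 alone, 1 of 8, was higher by 2-fold or more and 5 were lower, beside 26.8% and 28.4% of all rows. The lower genes were FABP6, GPBAR1, NR0B2, FGF19 and NR1H4. NR1H4 lay at the limit of 2-fold and SLC51A just inside it, and with TMM the log2 ratio of SLC51A was -1.18, which made 6 genes lower. The median log2 ratio of the 8 genes was -2.16, against 0.12 over all rows. Per epithelial RNA, SLC10A2 was still the 1 gene higher by 2-fold or more and the other 7 were lower, beside 4.54% and 73.1% of all rows on that scale.

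**Figure D2:**
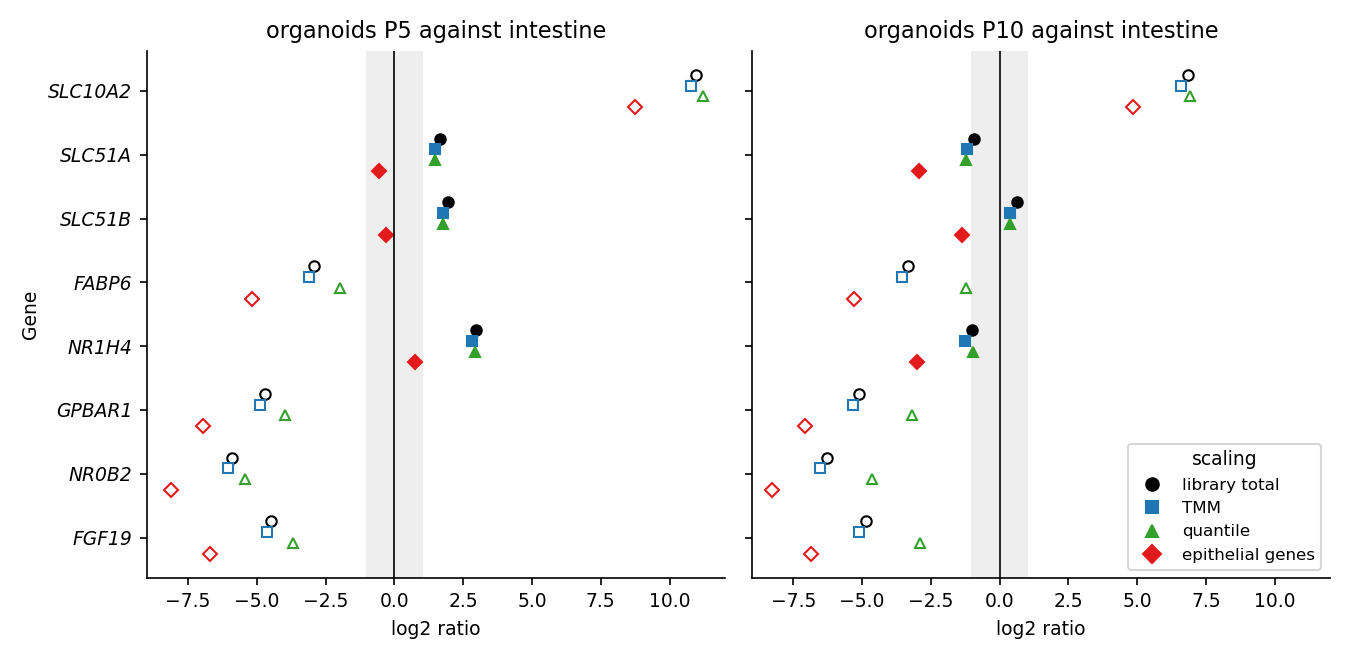
Log2 ratio of each bile acid gene in P5 organoids (left) and P10 organoids (right) against intestine under 4 scalings: library total, edgeR's TMM, quantile normalisation and the 10 epithelial genes. Open symbols are bounds, since 1 of the libraries was at the floor, and the grey band marks less than 2-fold. SLC10A2 stayed above intestine and FABP6, GPBAR1, NR0B2 and FGF19 below it under all 4 scalings, whereas SLC51A and SLC51B in P5 organoids moved from above to below intestine when scaled to epithelial genes.

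Between the passages, the 4 genes that the organoids expressed were all lower at P10, while the other 4 were at the floor in both libraries and gave no ratio. Of all 16131 rows with at least 10 reads in either organoid library, 18% were lower and 18.3% higher at P10 by 2-fold or more. SLC10A2 was 17.5-fold lower (15.7 to 19.6) and NR1H4 15.8-fold lower (13.0 to 19.3). SLC51A was 6.05-fold lower (5.40 to 6.78) and SLC51B 2.50-fold lower (2.29 to 2.75). The importer and the receptor thus differed by a like factor, with overlapping intervals, and the exporter subunits by smaller factors that did not overlap with those or with each other.

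The lower level at P10 was shared by other enterocyte genes. Of the 9 genes of the enterocyte list that could be compared, 8 were lower at P10 by 2-fold or more, with a median log2 ratio of -5.83, beside 0.12 over all rows. SI, the sucrase of the brush border, had a log2 ratio of -3.34, and SLC15A1, the peptide importer, one of -5.83. The log2 ratios of the 4 bile acid genes ran from -4.13 to -1.32. The epithelial list had a median of -0.19 and the proliferation list, 4 genes such as MKI67, a median of 0.85. A single library at each passage means that passage and culture cannot be told apart.

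**Figure D3:**
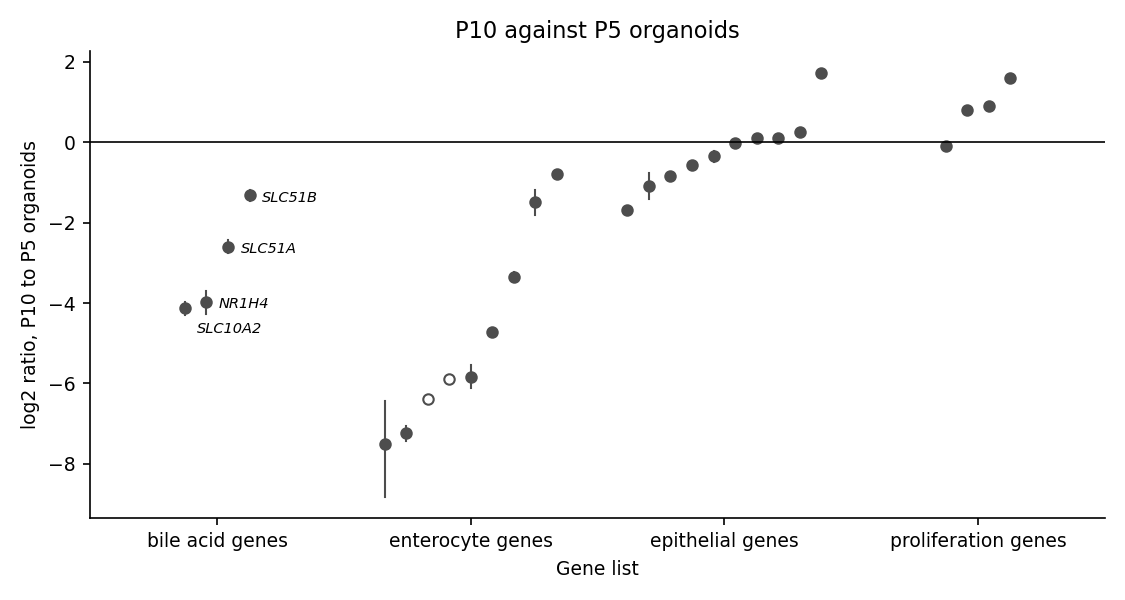
Log2 ratio of P10 to P5 organoids for the 4 bile acid genes above the floor, and for the enterocyte, epithelial and proliferation lists, with 1 point per gene. Bars are 95% exact intervals of the counting error, and open circles are bounds with P10 organoids at the floor. The bile acid genes lay between -4.13 and -1.32, within the span of the enterocyte genes and, for SLC10A2, NR1H4 and SLC51A, below all epithelial genes.

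To see whether other genes of the gut axis moved with SLC10A2, lists of distal and proximal small intestinal genes were examined. In intestine the proximal list was prominent, at a sum of 29655 CPM over 13 genes, among them the lipid carriers FABP1 and APOA4, the calcium carrier S100G and the incretin GIP. It summed to 815 CPM at P5 and 221 CPM at P10. Of the 12 proximal genes with enough reads, 11 at P5 and 12 at P10 were below intestine by 2-fold or more, and 0 were above it by as much. Of all rows, 24.8% and 28.4% were lower and 21.5% and 26.8% higher by that much. Per epithelial RNA all 12 were lower at both passages, beside 82.6% and 73.1% of all rows. The enterocyte list was also lower than intestine, in 6 of 10 genes at P5 and 8 of 10 at P10. At P5, 3 of those 10 were higher, and at P10 0. Whether the proximal genes differed apart from enterocyte genes as a whole was not tested. GATA4, the transcription factor that maintains jejunal identity and represses SLC10A2 in mice, had 2919 reads in intestine, 82 at P5 and 88 at P10, with log2 ratios to intestine of -4.77 and -5.05. Whether GATA4 bears on SLC10A2 in these libraries was not tested.

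The distal list was mixed. At P5, 2 of its 7 measurable genes lay above intestine by 2-fold or more, 2 below it and 3 within 2-fold. Of all rows, 21.5% were higher and 24.8% lower by that much. Per epithelial RNA 1 of the 7 distal genes was above intestine by 2-fold or more and 6 below it, with a median of -1.99. On that scale 2.67% of all rows were higher and 82.6% lower, with a median of -2.14. PYY, a hormone of distal enteroendocrine cells, was counted as higher on 10 reads against 6, a difference within counting error. CUBN, which takes up vitamin B12 in the ileum, had 1926 reads in intestine, 1743 at P5 and 76 at P10. In CPM this was 108, 128 and 4.29. Its partner AMN had 374, 196 and 149 reads. The hormone GCG had 88 reads in intestine and 5 or fewer in each organoid library. At P10, 5 of 6 distal genes were below intestine by 2-fold or more, beside 28.4% of all rows. Of the ileal signature, the organoids carried SLC10A2 but had FABP6 and FGF19 at the floor, and intestine had FGF19 and a few reads of FABP6 but no SLC10A2.

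**Figure D4:**
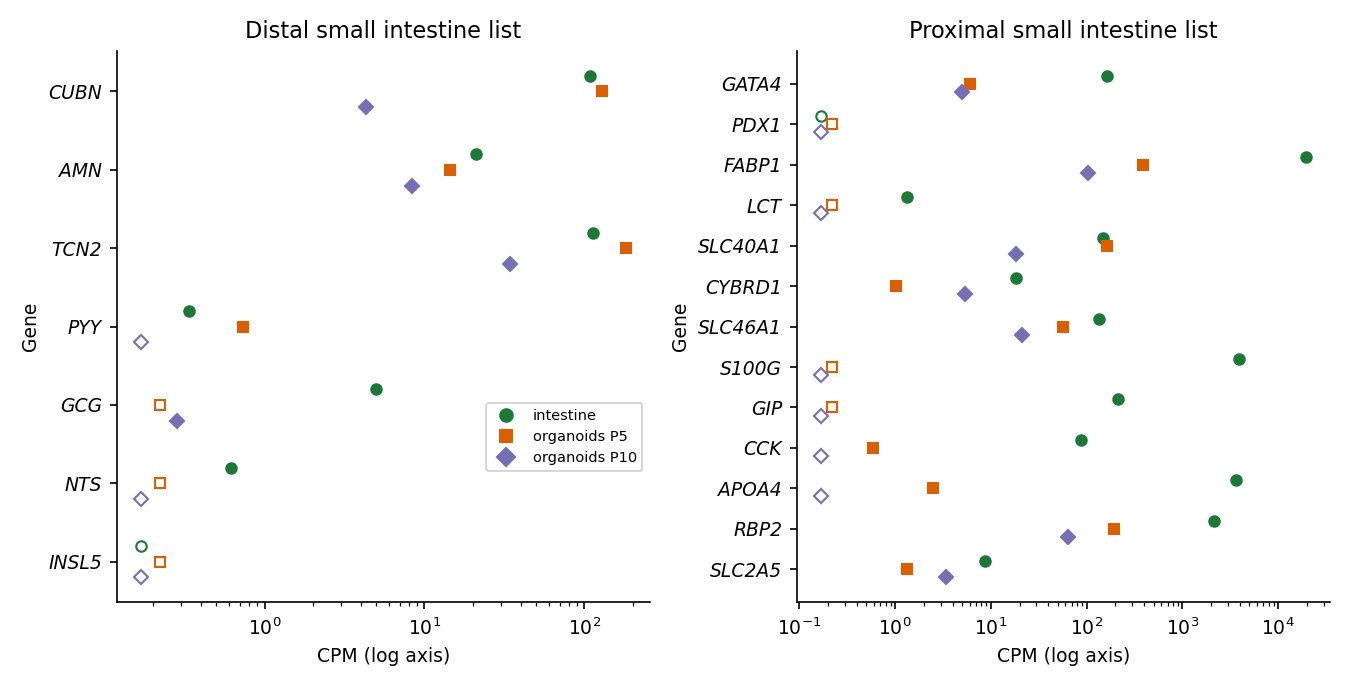
Level in CPM (log axis) of 7 genes of the distal list (left) and the 13 of the proximal list (right) in intestine, P5 organoids and P10 organoids, with 1 row per gene. Open symbols are counts of 3 reads or fewer, drawn at the value of 3 reads. CUBN was at 108 CPM in intestine, 128 CPM at P5 and 4.29 CPM at P10, whereas GATA4 was at 164, 6.03 and 4.96 CPM.

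The partners of FXR were measured in all 3 intestinal libraries. RXRA, with which FXR pairs on DNA, had 1484 reads in intestine, 903 at P5 and 1051 at P10, within 2-fold of intestine in both. Of the 13 genes listed as partners or other bile acid sensors, each organoid library had 4 above intestine by 2-fold or more, 2 below it and 7 within 2-fold. HNF4A, a regulator of enterocyte genes, was above intestine by 2.29-fold at P5 and 2.51-fold at P10, but below it per epithelial RNA (log2 ratios of -1.04 and -0.67). NR5A2, which acts with FXR on bile acid genes, was above intestine by 3.40-fold and 2.14-fold, and likewise below it per epithelial RNA (-0.47 and -0.89). CHRM3, a muscarinic receptor that some bile acids can bind, was above intestine by 2.02-fold and 5.44-fold, with values per epithelial RNA of -1.22 and 0.45. S1PR2, a surface receptor for conjugated bile acids, had 50 reads in intestine and 0 and 3 in the organoids. Per epithelial RNA 0 of the 13 were above intestine by 2-fold or more, and 12 at P5 and 9 at P10 were below it, with list medians of -2.31 and -2.17, close to those of all rows on that scale. CDX2, the intestinal homeobox factor, was also measured and had 4 reads in intestine, 199 at P5 and 24 at P10.

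Other transporters of bile acids and drugs did not share 1 direction. Of 7 with enough reads in P5 organoids or intestine, 3 were above intestine by 2-fold or more, 2 below it and 2 within 2-fold. ABCC3, a basolateral exporter, had 321 reads in intestine, 1824 at P5 and 2047 at P10, 7.43-fold and 6.39-fold above intestine. ABCC2, the apical exporter of conjugates, had 3583, 198 and 72 reads, with log2 ratios to intestine of -3.79 and -5.63. SLCO2B1, an organic anion importer, had 266 reads in intestine and 3 and 0 in the organoids. ABCB1, an apical drug exporter, had 1483, 4768 and 938 reads, higher than intestine at P5 and lower at P10 in the manner of SLC51A. Per epithelial RNA 0 of these transporters were above intestine at P5 by 2-fold or more and 4 were below it. Of all rows, 2.67% were higher and 82.6% lower on that scale. The log2 ratio of ABCC3 at P5 was 0.66 there.

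Genes of bile acid synthesis and of the FGF19 receptor went in both directions by library totals. Per epithelial RNA 0 were above intestine by 2-fold or more and 5 of 7 were below it at each passage. On that scale most rows were lower, 82.6% at P5 and 73.1% at P10, and 2.67% and 4.54% were higher. CYP7A1, the rate-limiting enzyme of bile acid synthesis, which is made in liver, had 0 reads in all 4 libraries. FGFR4, the receptor of FGF19, had 46 reads in intestine, 99 at P5 and 308 at P10, above intestine by 2.81-fold and 6.71-fold, and its co-receptor KLB had 16, 20 and 20. CYP7B1, of the alternative pathway, had 396 reads in intestine against 21 at P5 and 11 at P10. Of the 7 genes of this list with enough reads, 2 were higher and 1 lower by 2-fold or more at P5, and 2 were higher and 3 lower at P10. Of the 7 rows of bile acid and lipid detoxification, 3 were lower and 0 higher by 2-fold or more at P5, and at P10 6 were lower and 1, SULT2A1, was higher. Per epithelial RNA all 7 were lower at P5, and at P10 6 were lower and 0 higher, beside the same shares of all rows. SULT2A1 had a log2 ratio of -0.67 there at P10. CYP3A4, which hydroxylates bile acids, had 1970, 924 and 160 reads.

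Muscle served as the comparison tissue from outside the gut. Its library also held reads of gut genes, such as 373 of FABP1 and 63.6 CPM of the epithelial list. The origin of these reads, and of those of the bile acid genes in muscle, was not tested. In intestine against muscle, 6 of the 8 genes were higher and 2 lower by 2-fold or more, beside 57.1% and 11.5% of all rows. These shares of all rows rest on the scaling, and were 26.7% and 27.0% with quantile normalisation, whereas the counts of the 8 genes were the same. By library totals the median log2 ratio of all rows was itself 1.30. A ribosomal RNA row, RN18S1, took 23.6% of the muscle reads against 4.08% in intestine, and without it the median was 0.98. The 6 higher genes lay above this median, with log2 ratios from 2.96 for SLC51B to 5.81 for NR0B2, the latter a bound. The 2 genes higher in muscle were FABP6 and SLC10A2. SLC10A2 rested on 30 muscle reads, at least 13.8-fold above intestine. These 30 reads were 0.651% of the number in P5 organoids. SLC10A2 is itself 1 of the 8 rows with at least 1000 reads in P5 organoids and at most 10 in intestine, a set picked from these same data. Of these 8 rows, 7 had more than 3 reads in muscle. Over the set, muscle reads were from 0% to 23.0% of the P5 reads, with a median of 0.620%. Whether such reads came from muscle cells was not tested.

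The genes with the most similar profiles were found by the Euclidean distance between log2(CPM + 0.5) values centred over the 4 libraries, among 15051 rows with at least 50 reads in their highest library. Nearest to SLC10A2 were SLC6A19, an amino acid importer of the brush border (distance 0.837), TMIGD1 (1.60) and OSR2 (1.64). SLC6A19 had 16 reads in intestine, 18937 at P5 and 628 at P10. Nearest to NR1H4 were IL32, SLC31A1 and IL21R, to SLC51A were LRRC19, C7H5orf30 and ABCB1, and to SLC51B were LIMA1, PLSCR2 and B4GALT5. FABP6 was nearest to CAP2 (0.341), MYBPH (0.374), a myosin-binding protein of muscle, and FABP4 (0.486). GPBAR1, NR0B2 and FGF19 were nearest to other genes with reads in intestine almost alone, such as VIP and PRF1 for GPBAR1, GPR55 for NR0B2 and CYSLTR2 for FGF19. Over 4 libraries such likeness is a description.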

How the data were processed

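Libraries were made with the QuantSeq 3′ kit and sequenced on a NextSeq 500, with 1 library for each of 4 samples. The authors aligned reads with Bowtie2 and counted unique and multiple alignments with Bedtools. The deposited files give unnormalised counts, as whole reads for each gene symbol. The genome build, annotation and tool versions were not given in the sources used here, so no coordinates or sequences are printed.

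Levels were computed as CPM of the library total with exact Poisson intervals, and ratios with exact conditional binomial (Clopper-Pearson) intervals, at 95%. Molecules were not tagged, so PCR copies are not separated and the intervals cover counting error only. CPM was used in place of the quantile normalisation of the paper, which gives 1 read a different value in each library. Counts of 3 or fewer were set to 3 reads, so ratios against them are bounds set by the floor, without counting error. No p-value was computed. Shares of all rows past 2-fold count rows with at least 10 reads in either library, with bounds included. Alternatives were quantile normalisation, edgeR's TMM and upper quartile, totals without RN18S1, scaling to 10 epithelial genes, a pseudocount of 1 CPM, a floor of 10 reads and rows summed by symbol. For the shares of all rows, minimums of 1 and 50 reads were also tried, and scaling to epithelial genes was added after the data were seen. The scripts were tested on simulated libraries.

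The 8 genes and all lists were chosen with earlier results of these data known. All 8 genes are named. The rule for list genes was at least 50 reads in an intestinal library and a ratio past 2-fold in P5 or P10 organoids; only examples of those that met it are named, with the factors GATA4, CDX2 and HNF4A, and genes needed to check a label or a count. RXRA, KLB, CYP7A1, PYY, FABP4 and the neighbouring genes fall outside this rule and were named after their values were seen, as was the set of rows compared between P5 organoids and muscle. Single values of 2 list genes are not reported here, though the list counts include them. The 8 symbols were all found in RefSeq (ARS-UCD2.0). Intervals came from scipy 1.17.1 and scaling factors from edgeR 4.0.16 in R 4.3.3, with pandas 2.3.3 and numpy 2.4.6 under Python 3.11.15. Plots used matplotlib 3.10.9.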

Additional observations from a re-analysis of the deposited data

Results flagged for a closer look

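SLC51A and NR1H4 lay on opposite sides of intestine at the 2 passages, with both counting intervals excluding equality. The log2 ratio of SLC51A was 1.66 in P5 organoids and -0.94 in P10 organoids. For NR1H4 the values were 2.98 and -1.003. The difference between the passages was not tested, since each has 1 library. Per epithelial RNA, SLC51A lay below intestine at both passages, and NR1H4 remained above it at P5 and below it at P10.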

How the results depend on the processing

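No paired analysis was possible because each group has 1 library, and for the same reason no library could be left out. Scaling to epithelial genes reversed SLC51A (-0.58) and SLC51B (-0.29) in P5 organoids against intestine, and left 1 of the 8 genes at least 2-fold higher there. Of the other 214 values of single genes under an alternative, 115 stayed within the counting interval and 99 left it without reversing a difference of at least 2-fold. The 115 include 28 values with rows summed by symbol, which could not move because each gene had a single row. Among the 99, SLC51B at P10 against intestine changed sign with the epithelial scaling, from 0.62 to -1.38. The epithelial scaling was not applied to the comparison with muscle. Among all rows, the share at least 2-fold higher in intestine than in muscle was 26.7% with quantile normalisation, 34.1% with TMM and 30.9% with upper quartile, and the share lower was 27.0%, 23.0% and 26.0%. With epithelial scaling, an alternative added after seeing the data, 2.67% of all rows were higher and 82.6% lower in P5 organoids than in intestine by 2-fold or more, and 4.54% and 73.1% in P10 organoids. Among rows with at least 50 reads, 11.95% were at least 2-fold lower in P10 than in P5 organoids. Against library totals, the median of all rows in P5 organoids against intestine shifted by -0.17 with TMM, -0.15 with upper quartile and -2.23 with epithelial scaling. Bounds depend on the chosen floor: with 10 reads, that of SLC10A2 in P5 organoids fell from 10.97 to 9.23 (log2), and that of FABP6 from -2.94 to -1.20. Counts of 0 to 3 reads allow no order among the organoids and muscle for GPBAR1, NR0B2 and FGF19.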
